A study of Homo sapiens with 9 samples.

Results

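The 10 nuclear receptor genes described here steer metabolism in the liver, and were followed across 9 RNA libraries: NR1I2, NR1I3, NR0B2, NR1H4, NR5A2, PPARA, NR1H3, RXRA, NR2F1 and NR2F2. They were taken by symbol from a table of 50868 genes, and were chosen with earlier results of these data known. The libraries came from tumours that Huh-7, an established line of human hepatocellular carcinoma cells, formed under the skin of NOD/SCID mice. When tumours had reached about 100 mm3, adenovirus was given into the tumour at intervals of 4 days over 8 days. The control virus carried green fluorescent protein (Ad-GFP), the second HNF4A (Ad-HNF4A), and the third HNF4A with K458R, a change from lysine to arginine (Ad-K458R). Each group had 3 libraries, and the genotype field reads WT in all 9. The host strain lacks mature lymphocytes and keeps its myeloid cells, vessels and fibroblasts, whose mouse RNA enters the library with that of the tumour. What was done with mouse reads is not known from the sources used here. The labels number the tumours without saying that each came from its own animal, so the p-values below reflect variation among libraries, which may be technical. The series asks what K458R does to HNF4A in hepatocellular carcinoma.

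Nuclear receptors are transcription factors that many small lipophilic ligands switch on or off, and the liver uses them to match its enzymes to bile acids, drugs, fatty acids and oxysterols. PXR (NR1I2) and CAR (NR1I3) sense foreign compounds, FXR (NR1H4) senses bile acids, LXR alpha (NR1H3) senses oxysterols and PPAR alpha (PPARA) senses fatty acids. All of these act with RXR alpha (RXRA), their shared heterodimer partner. SHP (NR0B2) has no DNA-binding domain and represses other receptors, LRH-1 (NR5A2) binds as a monomer at bile acid genes, and COUP-TFI (NR2F1) and COUP-TFII (NR2F2) often compete for the sites that HNF4A uses. HNF4A itself is a nuclear receptor that binds as a homodimer and is known to act on several of these genes.

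HNF4A mRNA checked the labels first (chromosome 20, 44355700 to 44434596, ENSG00000101076; positions are those of the table, on GRCh38). Values are in CPM, the read count scaled by library size, here with totals adjusted by TMM. Its level was 154, 169.6 and 183 CPM in the Ad-GFP libraries, 3700, 3507 and 5391 CPM with Ad-HNF4A, and 5412, 4999 and 5489 CPM with Ad-K458R. All 6 vector libraries lay above the controls, and the third Ad-HNF4A library lay among the Ad-K458R values. The log2 difference from Ad-GFP was 4.64 ± 0.18 (SE) with Ad-HNF4A and 4.97 ± 0.18 with Ad-K458R (edgeR, adjusted p = 7.4e-06 and 4.1e-06). Between the vectors it was 0.34 (95% interval -0.02 to 0.69, adjusted p = 0.59). Reads of the vector and of the tumour's own HNF4A gene are counted together here.

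Totals ran from 15933702 to 23171796 counts per library, so that 1 count stands for 0.0442 to 0.0626 CPM. The first Ad-HNF4A library stood apart on the second principal component (12.7% of the variance), at 46.1 against -11.2 to 4.12 for the other 8, and results that change without it are given both ways. Markers of hepatocytes summed to 33400 to 34500 CPM in the Ad-GFP libraries, 34100 to 36800 in those of Ad-HNF4A and 30800 to 31400 in those of Ad-K458R, with all 13 of 13 above 0 in every group. Of these, APOA1 rose by 0.46 with Ad-HNF4A and 0.34 with Ad-K458R (log2, edgeR, adjusted p = 0.0095 and 0.047), APOA2 rose by 0.25 with Ad-HNF4A (adjusted p = 0.044), and none passed as lower with either vector, where 0 and 5 were lower at an unadjusted p under 0.05. The call of APOA1 with Ad-K458R was lost without any 1 of the 6 libraries compared, and that of APOA2 without the first or the third library of Ad-GFP or of Ad-HNF4A. With Ad-K458R, ALB was called lower without the third Ad-GFP library and FGA without the third Ad-K458R library. Human macrophage markers summed to 17.2 to 20.9, 31.8 to 39.2 and 40.6 to 43.9 CPM, so both vector groups lay above the controls. Of 12 listed macrophage markers 8 were tested. With Ad-HNF4A 4 (CTSS, LAPTM5, CSF1R and FCER1G) rose and with Ad-K458R 5 (these and CD68), beside 3.16% and 3.32% of all genes tested. CSF1R, LAPTM5 and FCER1G reached at most 0.0544, 0.109 and 0.398 CPM in an Ad-GFP library. They passed the filter on low counts only through the vector groups. The defining C1QA and C1QB had at most 3 counts in all 9 libraries together. Without the first or the third Ad-GFP library 2 macrophage markers (LAPTM5 and CTSS) were called with Ad-HNF4A. Without the second Ad-GFP library, or the first or the third Ad-HNF4A library, 3 were called, FCER1G not among them. FCER1G kept its call only without the second Ad-HNF4A library and, with Ad-K458R, only without the second Ad-K458R library. Of 8 endothelial markers 2 were tested and VWF rose with both vectors. With Ad-HNF4A its call was lost without any 1 Ad-GFP library or the second or the third Ad-HNF4A library. VWF, at 0.272 to 0.483 CPM with Ad-GFP, also passed the filter on low counts only through the vector groups. The list summed to 38.9 to 42.2, 48.1 to 59.2 and 41.7 to 48.3 CPM, and KDR was at 0 in every library. Fibroblast markers (103 to 105, 98 to 119 and 92.3 to 108 CPM) had 6 of 8 tested, and enterocyte markers (315 to 322, 304 to 441 and 311 to 329 CPM) had 6 of 8 tested. None of these passed the test with either vector in edgeR, DESeq2 or limma-voom, where 3 and 1 were under an unadjusted p of 0.05. In bulk tumours, fewer cells of a type and less RNA per cell cannot be told apart.

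Since HNF4A binds DNA, the promoters of the receptors are shown before their levels. RefSeq promoter windows on GRCh38.p14, from 250 bases before to 50 bases after a transcript start, were found for 9 of the 10 genes (18 windows), all but NR0B2. They were searched on both strands for CAAAGTCCA, a form of the HNF4A-specific motif, for AGTCCA, its last 6 letters, and for AGGTCA, the half-site that many nuclear receptors share. AGTCCA also matches inside every CAAAGTCCA. The motifs were chosen after the windows had been seen. No member window held CAAAGTCCA, which 0.384% of all 35116 windows hold. AGTCCA was in 4 of the 18 member windows, those of 4 genes, and in 11.8% of all windows. AGGTCA was in 3 of the 18 and in 13.8% of all. The 4 windows with AGTCCA are printed 5′ to 3′ in the sense of the gene, with matches to AGTCCA or AGGTCA on either strand in capitals. They belong to NR1I3, which rose with both vectors, and to 3 genes that passed no test. The match began at -60 in NR1I3 (chr1:161238154-161238453, minus strand) and at -57 in NR5A2 (chr1:200027460-200027759, plus strand), with AGGTCA at -84. In NR1I2 it lay on the opposite strand at -139 and -86 (chr3:119781851-119782150, plus strand). In NR1H4 it began at -221 beside an opposite AGGTCA at -230 (chr12:100503110-100503409, plus strand), a start 29652 bases inside the gene.
NR1I3: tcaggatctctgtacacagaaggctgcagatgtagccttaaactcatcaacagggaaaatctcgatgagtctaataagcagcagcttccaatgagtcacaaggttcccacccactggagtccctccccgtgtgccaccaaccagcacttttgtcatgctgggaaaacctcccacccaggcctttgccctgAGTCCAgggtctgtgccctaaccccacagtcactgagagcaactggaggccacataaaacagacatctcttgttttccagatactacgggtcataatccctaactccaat
NR1I2: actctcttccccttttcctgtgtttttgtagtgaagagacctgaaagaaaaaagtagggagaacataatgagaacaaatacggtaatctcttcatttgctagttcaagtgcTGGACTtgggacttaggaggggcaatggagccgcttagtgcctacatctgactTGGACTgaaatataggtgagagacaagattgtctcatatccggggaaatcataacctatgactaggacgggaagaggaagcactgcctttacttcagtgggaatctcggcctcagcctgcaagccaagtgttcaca
NR1H4: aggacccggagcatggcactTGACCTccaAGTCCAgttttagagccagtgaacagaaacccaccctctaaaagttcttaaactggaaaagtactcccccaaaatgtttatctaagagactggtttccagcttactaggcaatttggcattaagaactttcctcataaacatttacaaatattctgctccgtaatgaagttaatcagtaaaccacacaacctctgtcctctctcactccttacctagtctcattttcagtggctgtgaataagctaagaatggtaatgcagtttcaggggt
NR5A2: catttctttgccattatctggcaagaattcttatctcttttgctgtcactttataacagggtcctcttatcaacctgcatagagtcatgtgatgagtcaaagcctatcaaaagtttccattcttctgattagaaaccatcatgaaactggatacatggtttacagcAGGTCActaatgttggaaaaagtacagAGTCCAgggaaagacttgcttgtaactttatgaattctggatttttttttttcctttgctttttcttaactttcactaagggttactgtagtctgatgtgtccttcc

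All 10 genes passed the filter on low counts, NR1I3 only through the vector groups. Genes were called at an adjusted p under 0.05 (edgeR's quasi-likelihood test, Benjamini-Hochberg over 16697 genes). Against Ad-GFP, NR1I3 and NR0B2 rose with Ad-HNF4A, and NR1I3 and NR0B2 rose with Ad-K458R, in each case 2 of 10 or 20% of the members. Of all genes tested, 3.16% rose with Ad-HNF4A and 0.305% fell, and 3.32% rose with Ad-K458R and 0.234% fell. No member passed the test as lower, by edgeR, DESeq2 or limma-voom, and at an unadjusted p under 0.05 the lower members numbered 0 with Ad-HNF4A and 1 (NR1H4) with Ad-K458R. The 8 members that were not called differed by -0.09 to 0.29 (log2) with Ad-HNF4A and by -0.31 to 0.58 with Ad-K458R. The median log2 difference of the 10 members was 0.10 and 0.00, beside 0.01 and -0.00 over all genes tested. Both comparisons use the same 3 control libraries. The summed macrophage markers were also higher in all 6 vector libraries (31.8 to 43.9 CPM, against 17.2 to 20.9), and their part in these rises was not tested.

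**Figure D1:**
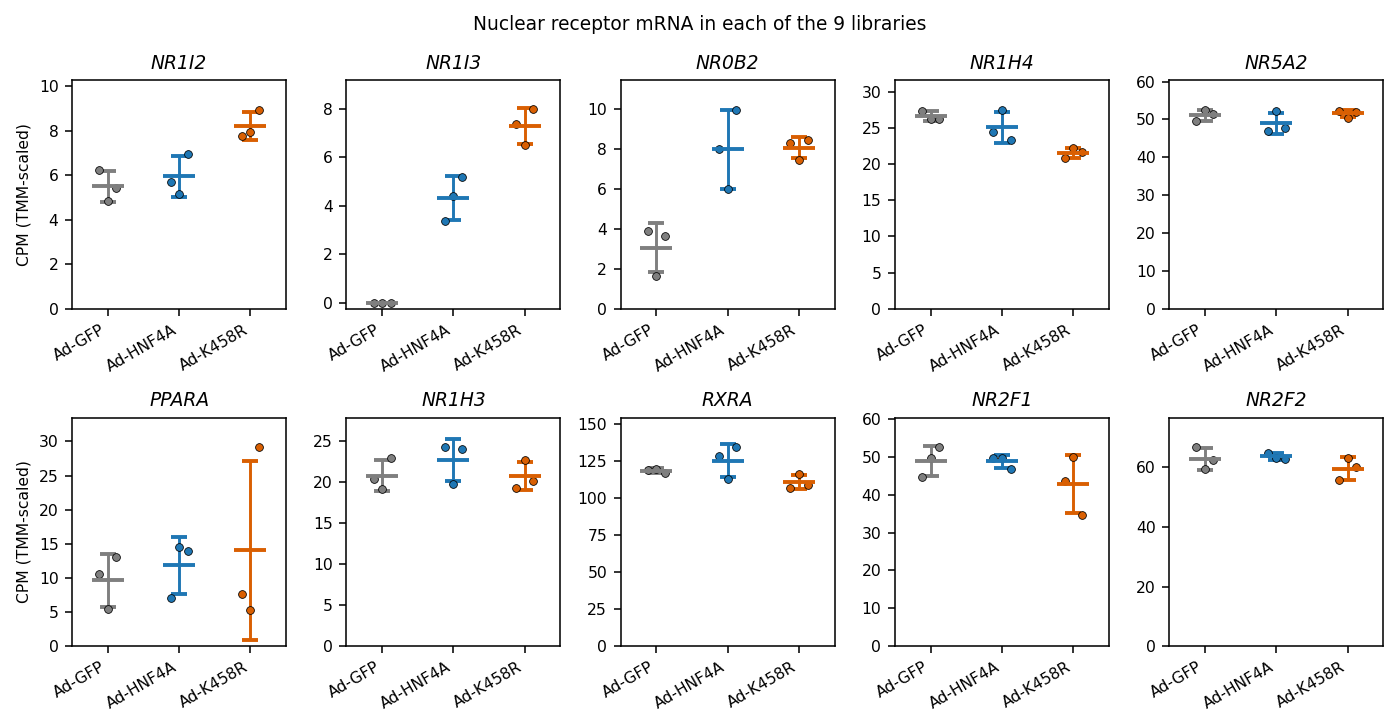
CPM of the 10 receptors in each library (points), with the mean (wide bar) and SD (whiskers) of the 3 libraries of a group; each panel has its own linear axis. NR1I3 is at 0 in the 3 Ad-GFP libraries and between 3.38 and 7.98 CPM in the others, NR0B2 is lower with Ad-GFP than with either vector, and 1 Ad-K458R library of PPARA lies at 29.1 CPM.

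NR1I3 encodes CAR, the receptor that induces CYP2B enzymes in answer to drugs (chromosome 1, 161229666 to 161238302, minus strand, ENSG00000143257). No read was counted for it in the 3 Ad-GFP libraries, with 3 counts, the limit that a count of 0 allows, at 0.133, 0.163 and 0.145 CPM. With Ad-HNF4A the counts were 54, 76 and 103 (3.38, 4.41 and 5.2 CPM), and with Ad-K458R 134, 144 and 143 (7.36, 6.5 and 7.98 CPM). Every vector library lay above every control, and the 3 groups did not overlap. Against a floor of 3 counts over the 3 control libraries together, the mean was at least 89.1-fold higher with Ad-HNF4A (edgeR, adjusted p = 3.2e-05) and at least 150-fold higher with Ad-K458R (adjusted p = 8.9e-06). Floors cover counting error only. The call held in all 16 alternatives of each comparison. Without the first Ad-HNF4A library the adjusted p was 6.9e-05.

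Between the vectors, NR1I3 was 7.28 ± 0.742 CPM (SD, n = 3) with Ad-K458R and 4.33 ± 0.91 CPM with Ad-HNF4A. The log2 difference of 0.74 ± 0.20 (95% interval 0.30 to 1.19) did not pass the test over all genes (edgeR, adjusted p = 0.39, unadjusted 0.0046). The adjusted p lay between 0.2 and 0.82 over 16 alternatives. An exact two-sided permutation test gave p = 0.1, the smallest that 3 against 3 libraries allow. HNF4A mRNA was 0.34 higher with Ad-K458R (log2, interval -0.02 to 0.69, edgeR, adjusted p = 0.59), with overlap of the groups. Per 1000 CPM of HNF4A, NR1I3 stood at 0.914, 1.26 and 0.964 CPM with Ad-HNF4A and at 1.36, 1.3 and 1.45 with Ad-K458R, without overlap of the groups. Reads of the vector count as HNF4A in this ratio. In CPM, 14.4% of all genes tested did not overlap between the vectors. The third Ad-HNF4A library had 5391 CPM of HNF4A and 5.2 of NR1I3, and the second Ad-K458R library 4999 and 6.5, which sets 1 library against 1. The part of the HNF4A level in the difference was not tested.

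The gene overlaps TOMM40L, a mitochondrial import gene on the other strand, over 1079 bases, and no strand-keeping step is described in the labels. TOMM40L had 443 to 754 counts in the Ad-GFP libraries, in which NR1I3 had none. It differed by -0.23 and -0.05 (log2, edgeR, adjusted p = 0.78 and 0.97) with Ad-HNF4A and Ad-K458R. Among all other tested genes, the profiles most like that of NR1I3 over the 9 libraries (Pearson r of log2 CPM, a description) were SMPD3, a sphingomyelinase (0.998), HNF4A (0.997) and HPD, a tyrosine catabolic enzyme (0.997). SMPD3 stood at 0.829 ± 0.0841, 10.6 ± 0.99 and 14.9 ± 0.838 CPM in the 3 groups, and HPD at 4.77 ± 0.642, 33.3 ± 3.2 and 40.8 ± 3.06 CPM. For NR1I3 and each of these genes, all 3 Ad-GFP libraries lay below all 6 vector libraries. SMPD3, HNF4A and HPD were picked for similarity over these same libraries, so the shared separation follows from that choice.

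NR1I2 encodes PXR, which induces CYP3A enzymes (chromosome 3, 119780484 to 119818485, ENSG00000144852). Its level was 6.23, 4.84 and 5.41 CPM with Ad-GFP, 5.7, 5.17 and 6.96 with Ad-HNF4A, and 7.75, 7.94 and 8.92 with Ad-K458R. The Ad-K458R libraries lay above all 6 others, while Ad-HNF4A and Ad-GFP overlapped. The difference of Ad-K458R from Ad-GFP was 0.57 ± 0.16 (log2, interval 0.23 to 0.92) and missed the threshold (edgeR, adjusted p = 0.082). That of Ad-HNF4A was 0.11 (interval -0.23 to 0.46, adjusted p = 0.78), and that between the vectors was 0.46 ± 0.16 (interval 0.12 to 0.80, adjusted p = 0.48). Groups that do not overlap were common: 21.4% of all genes for Ad-HNF4A against Ad-GFP, 23.7% for Ad-K458R against Ad-GFP and 14.4% between the vectors. Among the members they numbered 2, 5 and 3.

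Of 18 listed target genes of CAR and PXR, 14 were tested, and those called were all higher: 2 with Ad-HNF4A (median log2 of the list 0.29) and 4 with Ad-K458R (median 0.33). Among all genes tested, 3.16% were called higher with Ad-HNF4A and 3.32% with Ad-K458R. ABCB1, the drug efflux pump P-glycoprotein, was at 113 ± 2.45 CPM (SD, n = 3) in the controls, at 142 ± 8.33 with Ad-HNF4A and at 146 ± 6.86 with Ad-K458R. Its log2 differences were 0.33 and 0.36 (edgeR, adjusted p = 0.016 and 0.0072). UGT1A1, which conjugates bilirubin, stood at 6.9 ± 1.32, 13.5 ± 3.35 and 16 ± 2.69 CPM, a rise of 0.97 and 1.21 (adjusted p = 0.03 and 0.0072). GADD45B, a stress gene that CAR induces in liver growth, was at 37.2 ± 0.995, 41.8 ± 3.58 and 52.8 ± 5.11 CPM and rose by 0.50 with Ad-K458R (adjusted p = 0.0086), with 0.17 for Ad-HNF4A (adjusted p = 0.38). ABCC2, the canalicular conjugate pump, rose by 0.22 with Ad-K458R (adjusted p = 0.047), beside 0.13 for Ad-HNF4A (adjusted p = 0.22). A call with 1 vector and not with the other is no difference between them. Set directly against each other, the vectors gave no call in this list by edgeR, DESeq2 or limma-voom, and 1 gene under an unadjusted p of 0.05, GADD45B (0.34, edgeR, adjusted p = 0.37). CYP2B6 had the next smallest p (0.17, adjusted p = 0.64). CYP2B6, the enzyme by which CAR activity is usually read, was at 19.6 ± 1.32, 20 ± 1.04 and 22.4 ± 1.01 CPM (adjusted p = 0.91 and 0.37 against Ad-GFP), and CYP3A4, the drug-metabolising enzyme that PXR induces, had 4, 9 and 9 counts in the groups and was not tested. The calls of ABCB1 and UGT1A1 with Ad-HNF4A were lost without the first or the third Ad-GFP library or the third Ad-HNF4A library (0 called each). That of UGT1A1 was also lost without the second Ad-GFP library (1 called). Without the first Ad-HNF4A library 3 were called, with SULT2A1. With Ad-K458R, leaving out 1 library gave 3 or 4 calls, and ABCC2 was not among them in any of the 6 cases.

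NR0B2 encodes SHP, the repressor that FXR induces to hold back bile acid synthesis (chromosome 1, 26911489 to 26913966, minus strand, ENSG00000131910). Its level was 3.89, 1.63 and 3.62 CPM with Ad-GFP, 8.02, 5.98 and 9.94 with Ad-HNF4A, and 8.3, 7.45 and 8.42 with Ad-K458R. All 6 vector libraries lay above the controls, and the vector groups overlapped. The log2 rise was 1.38 ± 0.29 (interval 0.74 to 2.01, edgeR, adjusted p = 0.028) with Ad-HNF4A and 1.39 ± 0.29 (interval 0.75 to 2.02, adjusted p = 0.024) with Ad-K458R, fitted folds of 2.6 and 2.61. Between the vectors it was 0.01 (interval -0.59 to 0.61, adjusted p = 1). The call did not hold in every fit: with Ad-HNF4A the adjusted p was 0.0978 when the fit held only the 6 libraries compared, 0.061 without the third Ad-GFP library, 0.084 without the first and 0.102 without the third Ad-HNF4A library. With Ad-K458R it was 0.053 without the third Ad-GFP library and 0.09, 0.059 and 0.088 without the first, the second and the third Ad-K458R library. The rise itself lay between 1.09 and 1.60 in all of these fits.

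Per 1000 CPM of HNF4A, NR0B2 stood at 25.3, 9.62 and 19.9 CPM with Ad-GFP, at 2.17, 1.7 and 1.84 with Ad-HNF4A and at 1.53, 1.49 and 1.53 with Ad-K458R. The ratio was lower in all 6 vector libraries. Reads of the vector count as HNF4A, which rose by fitted folds of 24.9 and 31.4. Any gene that rises less has a lower ratio, so the lower ratio is no finding about NR0B2. The whole gene lies within the bounds of NUDC, a nuclear migration gene on the other strand, over 2478 bases. NUDC stood at 175 ± 10.7, 161 ± 6.58 and 157 ± 4.08 CPM, a log2 difference of -0.12 and -0.15 (edgeR, adjusted p = 0.37 and 0.27). The profiles most like that of NR0B2 were PRPH, an intermediate filament gene (r = 0.984 over 9 libraries), S100A1, a calcium-binding protein (0.979), and AQP8, a water channel of the bile canaliculus (0.975). They are low: PRPH went from 0.49 ± 0.241 to 1.89 ± 0.636 and 1.88 ± 0.431 CPM, and AQP8 from 0.0617 ± 0.0536 to 0.691 ± 0.204 and 0.624 ± 0.0932 CPM.

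NR1H4 encodes FXR (chromosome 12, 100473708 to 100564413, ENSG00000012504). Its level was 27.4, 26.3 and 26.3 CPM with Ad-GFP, 24.5, 27.5 and 23.4 with Ad-HNF4A, and 20.8, 22.3 and 21.6 with Ad-K458R. The Ad-K458R libraries were the lowest 3 of the 9, and the other groups overlapped. The difference of Ad-K458R was -0.31 ± 0.09 from Ad-GFP (log2, interval -0.50 to -0.12) and -0.22 ± 0.09 from Ad-HNF4A (interval -0.41 to -0.03), with adjusted p = 0.099 and 0.53 in edgeR, so neither passed. The difference of Ad-HNF4A from Ad-GFP was -0.09 (interval -0.28 to 0.10, adjusted p = 0.68). The summed hepatocyte markers, too, were lowest in the Ad-K458R libraries (30800 to 31400 CPM, against 33400 to 36800 in the other 6), while the only one of them that passed the test with Ad-K458R over all 9 libraries, APOA1, was higher. AFP was the largest part of this sum, with means of 13800, 14100 and 12200 CPM in the Ad-GFP, Ad-HNF4A and Ad-K458R groups. FGA ran from 1550 to 1570 CPM with Ad-GFP and from 565 to 1400 with Ad-K458R. SERPINA1 (1720 and 1820 CPM) and APOA2 (435 and 462) had higher means with Ad-K458R than with Ad-GFP. The part of these markers in the NR1H4 values was not tested.

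NR5A2, LRH-1 (chromosome 1, 200027602 to 200177424, ENSG00000116833), was among the steadiest of the 10. Its level was 49.6, 52.5 and 51.4 CPM with Ad-GFP, 46.9, 52.2 and 47.8 with Ad-HNF4A, and 52.3, 50.5 and 52 with Ad-K458R. The 3 groups overlapped. The log2 differences from Ad-GFP were -0.06 (interval -0.21 to 0.09) and 0.01 (interval -0.14 to 0.16), with adjusted p = 0.7 and 0.97 in edgeR.

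Among 18 listed genes of FXR and bile acid handling, 15 were tested, and 3 rose with each vector: CYP8B1, BAAT and ABCB11 (median log2 of the list 0.26 with Ad-HNF4A and 0.13 with Ad-K458R). Of all genes tested, 3.16% were called higher with Ad-HNF4A and 3.32% with Ad-K458R. CYP8B1, the sterol 12-alpha-hydroxylase, had no count with Ad-GFP and passed the filter on low counts only through the vector groups. It had 92 counts over the 3 Ad-HNF4A libraries (1.69 ± 0.757 CPM) and 141 over the 3 Ad-K458R libraries (2.41 ± 0.0701 CPM), at least 34.8-fold and at least 49.7-fold above a floor of 3 counts over the group (edgeR, adjusted p = 0.00075 and 3e-04). BAAT, which conjugates bile acids to amino acids, stood at 8.95 ± 1.46 CPM with Ad-GFP, 20.1 ± 3.63 with Ad-HNF4A and 36.8 ± 3.35 with Ad-K458R. It rose by 1.17 and 2.04 (adjusted p = 0.0016 and 3.2e-05). ABCB11, the bile salt export pump, stood at 2.01 ± 0.563, 5.24 ± 0.779 and 5.54 ± 0.32 CPM and rose by 1.37 and 1.45 (adjusted p = 0.0046 and 0.0026). Leaving out any 1 library kept at least these 3 calls against Ad-GFP. With Ad-HNF4A, 4 were called without the first Ad-HNF4A library (SLC51A added) and 4 without the second (CYP27A1 added). Between the vectors no gene of the list was called by edgeR or limma-voom and 1 by DESeq2, with 4 under an unadjusted p of 0.05. BAAT had the smallest p, and edgeR called it without the third Ad-HNF4A library. Its libraries stood at 17.3, 18.9 and 24.2 CPM with Ad-HNF4A and at 39.4, 33 and 38 with Ad-K458R, a difference of 0.87 ± 0.15 (edgeR, adjusted p = 0.19). KNG1, a kininogen gene that FXR induces, followed with -0.40 (adjusted p = 0.5). CYP7A1, the rate-limiting enzyme of bile acid synthesis that SHP represses, had 2, 3 and 1 counts in the groups and was not tested.

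PPARA, the receptor of fatty acid oxidation (chromosome 22, 46150521 to 46243756, ENSG00000186951), had the widest spread between libraries of a group. Its level was 10.5, 5.38 and 13.1 CPM with Ad-GFP, 7.01, 14.5 and 14 with Ad-HNF4A, and 7.69, 5.28 and 29.1 with Ad-K458R. The third Ad-K458R library, with 522 counts, was the highest and the second, with 117, the lowest of the 9, and all groups overlapped. The log2 differences from Ad-GFP were 0.29 ± 0.71 with Ad-HNF4A (interval -1.39 to 1.98) and 0.53 ± 0.70 with Ad-K458R (interval -1.15 to 2.20), with adjusted p = 0.89 and 0.82 in edgeR. Without the third Ad-K458R library the latter was -0.58. Since the spread was of this size, a change of 2-fold in either direction lay within the intervals.

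The listed PPARA targets had 17 of 20 members tested. Of these, 3 rose with Ad-HNF4A and 4 with Ad-K458R (median log2 0.24 and 0.12), beside 3.16% and 3.32% of all genes tested. CREB3L3, a liver transcription factor of lipid metabolism, stood at 64.3 ± 5.2 CPM with Ad-GFP, 120 ± 16.7 with Ad-HNF4A and 140 ± 6.14 with Ad-K458R, a rise of 0.90 and 1.12 (edgeR, adjusted p = 0.00045 and 7.8e-05). ACAA1, a thiolase of the peroxisome, rose by 0.45 and 0.42 (adjusted p = 0.0021 and 0.0029). CPT1A, the gate of mitochondrial fatty acid uptake, rose by 0.46 with Ad-K458R (adjusted p = 0.045), beside 0.26 with Ad-HNF4A (adjusted p = 0.27). Between the vectors no target was called by edgeR, DESeq2 or limma-voom, with 5 under an unadjusted p of 0.05. The smallest p-values belonged to EHHADH, a peroxisomal enzyme (-0.22, adjusted p = 0.39), and FABP1, the liver fatty acid carrier (-0.49, adjusted p = 0.48). The call of CPT1A was lost without any Ad-GFP library or the first or the third Ad-K458R library, where 3 were called.

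NR1H3 encodes LXR alpha (chromosome 11, 47248300 to 47269032, ENSG00000025434). Its level was 20.3, 19.1 and 22.9 CPM with Ad-GFP, 24.2, 19.7 and 24 with Ad-HNF4A, and 19.3, 22.6 and 20.1 with Ad-K458R. The groups overlapped. The log2 difference from Ad-GFP was 0.12 with Ad-HNF4A (interval -0.13 to 0.38) and -0.00 with Ad-K458R (interval -0.26 to 0.25), with adjusted p = 0.64 and 0.99 in edgeR. NR1H3 shares 607 bases with ACP2, a lysosomal phosphatase on the other strand at 42.7 ± 8.43, 45.2 ± 11.8 and 44.8 ± 5.8 CPM.

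All 14 listed LXR targets were tested, and 4 rose with each vector (median log2 0.23 and 0.21), beside 3.16% and 3.32% of all genes tested. MLXIPL, the glucose-sensing factor ChREBP, stood at 4.12 ± 0.724, 9.19 ± 1.83 and 8.9 ± 0.0978 CPM and rose by 1.16 and 1.11 (edgeR, adjusted p = 0.0046 and 0.0048). SMPDL3A, a phosphodiesterase, rose by 0.56 and 0.63 (adjusted p = 0.011 and 0.0041). APOE, the lipoprotein component, stood at 679 ± 43.2, 917 ± 105 and 924 ± 68.6 CPM and rose by 0.43 and 0.45 (adjusted p = 0.021 and 0.016). The sterol half-transporters ABCG8 and ABCG5 each passed once: ABCG8 rose by 0.77 with Ad-HNF4A (adjusted p = 0.031, beside 0.50 and 0.18 with Ad-K458R) and ABCG5 by 1.12 with Ad-K458R (adjusted p = 0.023, beside 0.98 and 0.051 with Ad-HNF4A). Macrophages also use APOE and LXR, and those of these tumours would be cells of the mouse host. The summed human macrophage markers were higher with both vectors, at 17.2 to 20.9, 31.8 to 39.2 and 40.6 to 43.9 CPM. Of this sum, CD68 alone had means of 12.4, 17.9 and 24.8 CPM. The part of macrophages in the change was not tested. SREBF1, FASN and SCD, the lipogenic targets, differed by 0.06, 0.11 and 0.01 with Ad-HNF4A and by -0.09, -0.09 and -0.14 with Ad-K458R, none of them called. Between the vectors no target was called by edgeR, DESeq2 or limma-voom, with 2 under an unadjusted p of 0.05: ABCA1, the cholesterol efflux pump (-0.22, adjusted p = 0.37), and SCD (-0.15, adjusted p = 0.54). MLXIPL and SMPDL3A were called whichever library was left out. APOE lost its call with Ad-HNF4A without the first or second library of either group and with Ad-K458R without the first or second library of either group. ABCG8 lost it without any 1 Ad-GFP library or the third Ad-HNF4A library, and ABCG5 in 5 of 6 cases, all but the first Ad-GFP library. The list count fell to 2 without the second Ad-GFP library in both comparisons, and without the first or the second Ad-K458R library in the comparison of Ad-K458R.

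RXRA, the partner of most of these receptors (chromosome 9, 134317098 to 134440585, ENSG00000186350), was at 119, 119.9 and 117 CPM with Ad-GFP, 129, 113 and 134 with Ad-HNF4A, and 107, 116 and 109 with Ad-K458R. The Ad-K458R libraries lay below all of Ad-GFP, and the Ad-HNF4A libraries spread around both. The log2 difference from Ad-GFP was 0.08 with Ad-HNF4A (interval -0.08 to 0.23) and -0.10 with Ad-K458R (interval -0.25 to 0.06), with adjusted p = 0.64 and 0.61 in edgeR. Between the vectors it was -0.18 (interval -0.33 to -0.02, adjusted p = 0.53).

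Neither COUP-TF gene passed the test with either vector. NR2F1 (chromosome 5, 93583337 to 93594615, ENSG00000175745) was at 44.7, 49.6 and 52.5 CPM with Ad-GFP, 49.8, 49.8 and 46.7 with Ad-HNF4A, and 43.7, 50 and 34.6 with Ad-K458R. NR2F2 (chromosome 15, 96325938 to 96340263, ENSG00000185551) was at 66.7, 59.3 and 62.5 CPM, then 65, 63.2 and 63, and then 55.6, 63.1 and 60.2. The groups of both genes overlapped, and the third Ad-K458R library was the lowest for NR2F1. With Ad-HNF4A the log2 differences were -0.00 and 0.02 (edgeR, adjusted p = 0.99 and 0.93), and with Ad-K458R -0.19 and -0.08 (adjusted p = 0.54 and 0.72). The interval for NR2F1 with Ad-K458R ran from -0.46 to 0.07. Each gene overlaps an antisense transcript, NR2F1-AS1 over 2312 bases and NR2F2-AS1 over 1424 bases. NR2F1-AS1 stood at 5.97 ± 0.578, 5.86 ± 0.361 and 5.87 ± 0.69 CPM, and NR2F2-AS1 at 1.17 ± 0.292, 1.64 ± 0.305 and 1.4 ± 0.128 CPM. Without strand, reads of such partners cannot be told apart. PHBP8, AC010200.2, AC096633.1 and FP325332.1, which overlap NR1I2, NR1H4, NR5A2 and PPARA, had 0 to 2 counts in each library.

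**Figure D2:**
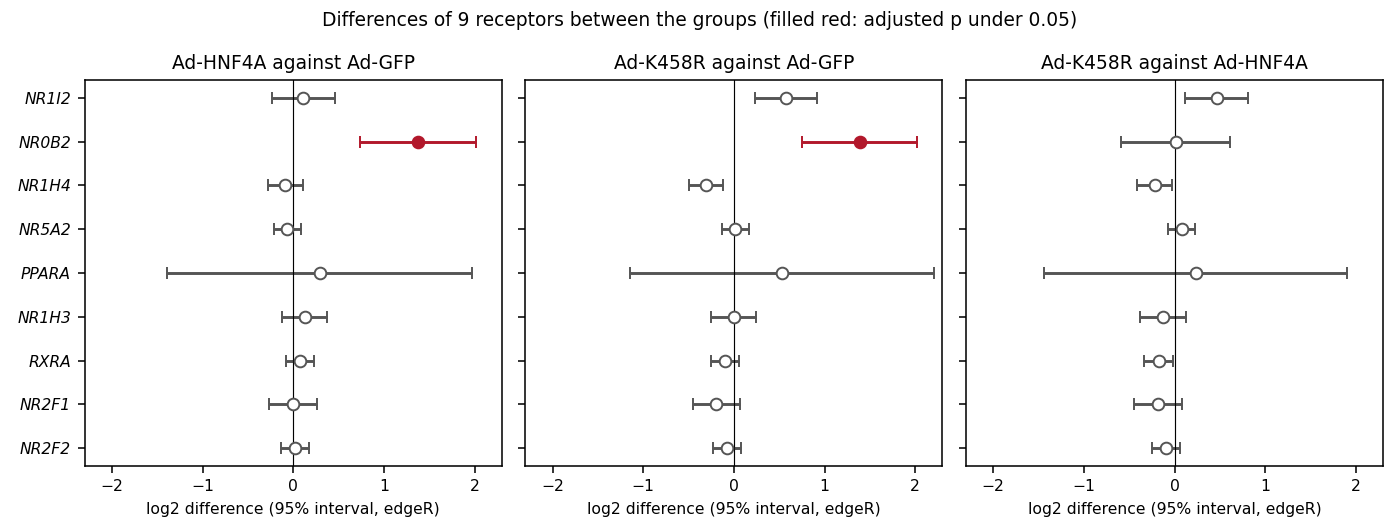
Log2 differences between groups (points) with 95% intervals from edgeR for 9 receptors in the 3 comparisons; filled red points passed an adjusted p under 0.05, and NR1I3 is left out because its controls are at 0. NR0B2 is filled in both comparisons with Ad-GFP, no point is filled between the vectors, and PPARA has the widest intervals.

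Between Ad-K458R and Ad-HNF4A no member was called by edgeR, DESeq2 or limma-voom, and 0.012% of all genes tested were called by edgeR, 2 genes in all. At an unadjusted p under 0.05 there were 4 members, NR1I3 and NR1I2 higher and NR1H4 and RXRA lower with Ad-K458R, beside 1460 of 16697 genes. NR1I3, NR1I2 and NR1H4 are the 3 members whose vector groups did not overlap, beside 14.4% of all genes tested. The members differed by -0.22 to 0.74 (log2) with a median of -0.04. These intervals do not show that the vectors act alike on the genes. For NR5A2 the interval ran from -0.07 to 0.23, for NR2F2 from -0.25 to 0.06, for NR1H3 from -0.38 to 0.12, for NR2F1 from -0.45 to 0.08 and for PPARA from -1.44 to 1.90. DESeq2 called 60 of all genes where edgeR called 2.

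Levels of different genes were set in order by the deposited FPKM, which scales a count by gene length and library size, within a group. With Ad-GFP the order was RXRA (10.1 ± 0.142 FPKM), NR2F1 (7.35 ± 0.657), NR2F2 (7.22 ± 0.364), NR1H4 (4.66 ± 0.0672), NR5A2 (3.73 ± 0.138), NR0B2 (2.6 ± 1.04), NR1H3 (1.36 ± 0.13), NR1I2 (0.718 ± 0.0851), PPARA (0.399 ± 0.162) and NR1I3, listed at 0. The neighbours NR2F1 and NR2F2, and NR0B2 and NR1H3, overlapped over the libraries. With Ad-HNF4A, NR0B2 (6.92 ± 1.73 FPKM) ranked next after NR2F2, with overlap, and NR1I3 (0.483 ± 0.102) overlapped PPARA (0.497 ± 0.176) at the foot. With Ad-K458R, NR0B2 (7.02 ± 0.5 FPKM) was second and overlapped NR2F2, and NR1I3 (0.816 ± 0.0877) stood above PPARA (0.594 ± 0.557), with overlap. The length behind the FPKM is longer than the summed exons for every member but NR0B2, for example 15086 against 4533 bases for NR1H3. Per kilobase of summed exons of GENCODE 29, the order differed in every group. With Ad-GFP, NR2F1 came before RXRA and NR1H3 before NR0B2. With Ad-HNF4A, NR2F1 came before RXRA and NR1H4 before NR0B2, and NR1I3 ranked 8 (1.31 CPM per kilobase), above NR1I2 (1.1) and PPARA (0.895). With Ad-K458R, NR0B2 ranked 4, below both COUP-TF genes, NR5A2 came before NR1H4, and NR1I3 (2.2) before NR1I2 (1.52).

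Of 37 other nuclear receptors listed, 26 were tested, with 1 called higher with Ad-HNF4A, and 2 higher and 1 lower with Ad-K458R, beside 3.16% of all genes called higher with Ad-HNF4A, and 3.32% higher and 0.234% lower with Ad-K458R. With Ad-HNF4A, DESeq2 called 2, and edgeR called 2 without the third Ad-GFP library (NR2F6, higher, added) or the second Ad-HNF4A library (NR3C1, lower, added). NR2E1, the orphan receptor TLX, rose with both vectors, from 0.393 ± 0.0725 CPM to 1.28 ± 0.075 and 1.26 ± 0.122, by 1.70 and 1.68 (edgeR, adjusted p = 0.0081 and 0.0069), and was called whichever library was left out. At 0.309 to 0.435 CPM in the Ad-GFP libraries, NR2E1 passed the filter on low counts only through the vector groups. RARA, a retinoic acid receptor, stood at 18.3 ± 0.511, 23.5 ± 2.57 and 26.5 ± 1.6 CPM and rose by 0.54 with Ad-K458R (adjusted p = 0.01), beside 0.37 with Ad-HNF4A (adjusted p = 0.078). NR4A2, an immediate-early orphan receptor, fell by 0.79 with Ad-K458R, from 27.1 ± 0.882 to 15.6 ± 4.41 CPM (adjusted p = 0.047), beside -0.57 with Ad-HNF4A (adjusted p = 0.15). Its call was lost without any 1 Ad-GFP library or the second Ad-K458R library, and that of RARA without the first or second Ad-K458R library. The list median was 0.10 and -0.00. Between the vectors none was called by edgeR, DESeq2 or limma-voom, with 3 under an unadjusted p of 0.05. The smallest p-values were those of THRB, a thyroid hormone receptor (-0.22, adjusted p = 0.43), and VDR, the vitamin D receptor (-0.45, adjusted p = 0.53).

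None of 24 coregulators tested was called in edgeR or limma-voom with either vector (median log2 -0.05 in both). DESeq2 called 1 lower with Ad-HNF4A and 0 with Ad-K458R, and 7 and 4 were under an unadjusted p of 0.05. EP300, an acetyltransferase, had the smallest p in both comparisons, at -0.21 and -0.17 (edgeR, adjusted p = 0.079 and 0.19). PPARGC1A, the coactivator PGC-1 alpha, was second with Ad-HNF4A (-0.61, adjusted p = 0.12), and TBL1XR1, part of the corepressor complex, was second with Ad-K458R (-0.34, adjusted p = 0.19). In the direct comparison of the vectors 0 were called by the 3 tools and 3 were under an unadjusted p of 0.05, first PPARGC1A (0.62, adjusted p = 0.43) and NRIP1, a corepressor (0.20, adjusted p = 0.5). Without the third Ad-GFP library 1 gene, TBL1XR1, was called with either vector, and without the second Ad-HNF4A library 2, CREBBP and EP300, were called with Ad-HNF4A.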

How the data were processed

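The table holds 1 column of raw read counts and 1 of FPKM per library for human Ensembl genes, as the authors deposited them, per the file headers. The deposited FPKM scales each count by library size and by a gene length whose source was not stated. The submitters' processing notes name Trimmomatic and mm10, a mouse build, whereas 98.5% of the gene identifiers occur in GENCODE 29 (GRCh38) and 94.8% of these have the identical position, with aligner and counter not given in the sources used here.

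Counts of the 9 libraries entered 1 quasi-likelihood fit in edgeR 4.0.16 (R 4.3.3), with a term per group, a robust fit, TMM scaling and the default filter, which kept 16697 genes. Tests were two-sided, and a floor of 3 counts bounded folds against 0. SE and 95% intervals come from the F statistic. Groups follow titles, and for 1 library with a misspelt title the description. The treatment field, whose names run upwards from library to library like a filled spreadsheet column, was not used.

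Named were HNF4A, all members, up to 4 called genes per list and comparison (otherwise the 2 with the smallest p), genes overlapping a member, and 3 genes of most similar profile per called member. Named outside this rule, after their values were seen, were CYP2B6, CYP3A4 and CYP7A1 as known targets, SREBF1, FASN and SCD, C1QA, C1QB, KDR and other markers, and NR2F6 and NR3C1. The members and lists were chosen with earlier results of these data known. Alternatives were DESeq2 1.42.0, limma 3.58.1 (voom, and trend on log2(FPKM + 1)), 3 scalings, 2 filters, fits of 6 libraries, a replicate block and leaving out each library. List counts without each library were added after seeing the data. The values of 1 listed gene are not reported here.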

Additional observations from a re-analysis of the deposited data

How the results depend on the processing

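Over 16 alternatives in 3 comparisons, 448 of 480 member values kept their direction and their side of the threshold, 8 (all NR0B2) lost the call, 0 gained one and 24 changed sign, all of them of genes not called. The cause was not tested. Genes called with Ad-HNF4A against Ad-GFP numbered 578, with 351 in fits of 6 libraries (1 member) and 344 to 756 without 1 library (1 to 2 members). With Ad-K458R they numbered 594, and 391 to 456 without 1 library (1 to 2 members), when an arm of 2 is assumed to vary like the others. Between the vectors 2 genes were called, with 60 by DESeq2, 4 by limma-trend on FPKM, 9 without a filter, 9 in fits of 6 libraries and 3 to 12 without 1 library. Changes of sign with Ad-HNF4A were NR2F1, at 0.0179 by limma-trend and 0.0179 by library totals, and without 1 library NR2F1 (-0.0679 to 0.0487), NR2F2 (-0.0215 to 0.0627) and NR1I2 (-0.0208 to 0.213). With Ad-K458R, NR1H3 was at 0.0143 by limma-trend, 0.000144 by upper quartile scaling, 0.025 by library totals and 0.000777 under the stricter filter. Without 1 library it ran from -0.0748 to 0.0705, NR5A2 from -0.0127 to 0.0302 and PPARA from -0.583 to 0.924. Between the vectors PPARA was -0.161 by limma-voom and -0.875 to 0.634 without 1 library, and NR0B2 -0.16 to 0.204. Replicate numbers did not pair the libraries (r of deviations -0.0379 to 0.0526). With a replicate block 423, 477 and 2 genes were called, NR1H3 was at 0.0018 with Ad-K458R, PPARA at -0.0657 between the vectors, and no member's call changed. NR1I3 had no count with Ad-GFP, so at this depth its fold there is only bounded from below.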

Other observations

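The library pattern of PPARA, which does not follow the groups, was looked up after its values were seen. Over the 9 libraries the tested genes with the most similar log2 CPM were GABARAPL1, an autophagy gene of the ATG8 family (Pearson r = 0.949), CRYAB, a small heat shock protein (0.946), and INO80C, a chromatin remodelling subunit (0.906). GABARAPL1 stood at 44.2, 20.7 and 45.7 CPM with Ad-GFP, 26.7, 48.6 and 62.4 with Ad-HNF4A, and 23.2, 19.5 and 72.3 with Ad-K458R. As for PPARA, the third Ad-K458R library was the highest of the 9 and the second the lowest. These r are a description of the same libraries in which the pattern was seen, and they are taken from the top of 16697 genes.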
